A study of Mus musculus with 4 samples.

Results

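The genes described here are 10 mouse genes that are expressed mainly in the testis, several of them retrocopies (copies made by reverse transcription of another gene's RNA) and several of them enzymes of energy metabolism: Pdha2, Pgk2, Ldhc, Gapdhs, Slc25a31, D1Pas1, Rpl10l, Tuba3a, Tuba3b and Dpep3. They were taken by name from 28777 genes, with every row that the gene table and the CpG island table list for them. This gave 45 of 135245 rows, of which 20 were promoters and gene bodies and 25 were CpG islands with their flanks. The names were chosen with the methylation difference between the groups already known, so that difference is given below as a description, with no test.

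The assay was RRBS (reduced representation bisulfite sequencing): the enzyme MspI cuts DNA at CCGG, fragments are size selected, and bisulfite converts unmethylated cytosines. The cells were CGR8, a mouse embryonic stem cell line, grown in serum with LIF. The netrin-1 group (2 libraries) was stably transfected with the ppy-cagg-netrin-ires-puro vector, which expresses a netrin-1 transgene, and the control group (2 libraries) with the empty ppy-cagg-ires-puro vector, so both groups carry a puromycin vector. Netrin-1 is a secreted guidance cue with DCC and UNC5 family receptors, and the comparison asks how the methylome of cells with the transgene differs from that of cells without it. The labels do not say whether a group was a clone or a pool, or whether the replicates were separate cultures, so the spread between libraries may be technical.

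A level is the percent of a row's cytosine calls that were methylated, means carry the SD over the 2 libraries of a group, and coordinates are on GRCm38 (mm10). The netrin-1 libraries held 32770000 and 44642064 calls in 100 kb windows, and the control libraries 28004487 and 37394424. Calls of amplified reads are not independent molecules, so the 95% Wilson intervals and the limits for rows at 0% (3 calls of the total) cover counting error only. Among promoters of stem cell genes with at least 10 calls in every library, Pou5f1, Sox2, Zfp42, Klf4, Tdgf1 and Dppa4 stood at 0% to 3.03% in all 4 libraries. Esrrb stood apart, at 49.4% and 14.8% in netrin-1 cells and 51.7% and 9.43% in control cells. Nanog had no calls. At 2 of the 7 stem cell promoters with enough calls, Sox2 and Dppa4, both netrin-1 libraries lay below both controls. Of 3 trophoblast and 3 fibroblast genes, 2 promoters each had enough calls. Among these the groups were separate only at the trophoblast gene Eomes, also lower in netrin-1 cells. Over all promoters with enough calls, 21% were lower in this way and 13.2% higher. Promoter methylation is not expression, and RNA was not used here.

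Retrocopies of this kind work in male meiosis. The housekeeping copies of several of these genes lie on the X chromosome, which is silenced in pachytene spermatocytes, and the autosomal copies supply the protein there. In mouse embryos and somatic cells many germline genes are kept off by CpG methylation of their start regions, set by DNMT3A and DNMT3B, and at some of them the factors E2F6 and the MAX partner MGA are known to recruit repressors. Embryonic stem cells in serum keep much of this methylation.

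Because MspI cuts at CCGG, the sites in or near a start region affect whether RRBS reads it. All 10 genes had an entry in the RefSeq promoter table (GRCm38.p6), which gives 300 bases, 250 before and 50 after the start. Where a gene had more than 1 entry, the first that overlaps its promoter row was used. CCGG stood in 5 of these 10 windows, as it did in 52.8% of all 32851 promoter entries. The 5 genes with the site all had promoter calls. Of the 5 without it, Pdha2, Pgk2, Ldhc and Gapdhs had no calls in their promoter row in any library. Dpep3 had calls from 9 positions in its promoter row, and whether any of them lie inside the window is not known. The windows of D1Pas1, Slc25a31 and Tuba3b are shown, whose promoters were lower in netrin-1 cells without overlap of the groups. The window of Pdha2, which holds no site, stands beside them. Capitals mark CCGG.
D1Pas1, chr1:186967166-186967465, plus strand: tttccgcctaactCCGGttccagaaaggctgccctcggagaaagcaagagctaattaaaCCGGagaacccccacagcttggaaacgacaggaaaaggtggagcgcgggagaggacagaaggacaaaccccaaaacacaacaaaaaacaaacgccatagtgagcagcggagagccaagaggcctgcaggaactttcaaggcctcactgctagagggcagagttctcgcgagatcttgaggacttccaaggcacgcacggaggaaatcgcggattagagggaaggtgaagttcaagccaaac
Slc25a31, chr3:40708621-40708920, plus strand: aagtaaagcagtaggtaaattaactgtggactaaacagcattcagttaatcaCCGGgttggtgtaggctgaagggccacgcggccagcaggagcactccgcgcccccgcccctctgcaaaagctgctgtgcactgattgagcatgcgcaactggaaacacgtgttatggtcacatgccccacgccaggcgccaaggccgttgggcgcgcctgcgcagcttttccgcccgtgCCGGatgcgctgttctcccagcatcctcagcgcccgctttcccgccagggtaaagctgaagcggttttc
Tuba3b, chr6:145615713-145616012, plus strand: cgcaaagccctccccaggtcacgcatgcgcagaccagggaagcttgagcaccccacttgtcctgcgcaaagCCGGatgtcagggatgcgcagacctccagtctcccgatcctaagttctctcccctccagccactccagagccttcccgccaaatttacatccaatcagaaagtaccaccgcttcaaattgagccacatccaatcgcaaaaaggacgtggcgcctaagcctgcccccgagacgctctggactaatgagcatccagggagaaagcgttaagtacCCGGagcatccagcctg
Pdha2, chr3:141212306-141212605, minus strand: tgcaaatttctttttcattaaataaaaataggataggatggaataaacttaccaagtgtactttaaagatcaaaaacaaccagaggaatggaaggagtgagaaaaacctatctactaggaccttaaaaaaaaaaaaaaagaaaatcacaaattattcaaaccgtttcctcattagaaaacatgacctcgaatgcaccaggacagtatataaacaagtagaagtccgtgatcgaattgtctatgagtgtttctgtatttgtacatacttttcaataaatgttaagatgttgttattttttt

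The windows differ widely in CpG content. That of Slc25a31 holds 22 CpG dinucleotides, that of Tuba3b 16 and that of D1Pas1 15, while those of Pdha2, Pgk2 and Gapdhs hold 4 each. The motif TTCCCGC, the kind of site that E2F factors bind, was searched on both strands and stood in 4 of the 10 windows, against 4.6% of all promoter entries. The stretches that hold it are shown with the motif in capitals.
Slc25a31, chr3:40708873-40708913, plus strand: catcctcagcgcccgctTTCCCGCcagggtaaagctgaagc
Tuba3a, chr6:125286178-125286218, minus strand: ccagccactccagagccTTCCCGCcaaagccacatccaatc
Tuba3b, chr6:145615839-145615879, plus strand: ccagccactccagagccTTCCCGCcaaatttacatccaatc
Rpl10l, chr12:66284422-66284462, minus strand: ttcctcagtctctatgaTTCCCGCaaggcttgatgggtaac
The motif begins 19 bases past the RefSeq start in Slc25a31, 120 bases before the start in Tuba3a, 107 bases before it in Tuba3b and 44 bases before it in Rpl10l. The Tuba3a and Tuba3b windows are related, with 176 identical bases in 235 aligned columns and a shared run of 33 bases that holds the motif. CACGTG, the E-box that MAX dimers bind, stood in the Slc25a31 window alone among the 10 and in 7.15% of all entries, and it does not overlap TTCCCGC. A match is only a description of these letters.

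Of the 45 rows, 24 had at least 10 calls in every library, 18 had no calls in any library, and the other 3 had calls but too few. The 24 rows comprised 6 promoters, 8 bodies, 5 islands, 3 shores (the 2 kb next to an island) and 2 shelves (the 2 kb beyond a shore). Pgk2, a retrocopy of the glycolytic gene Pgk1, had no calls in its promoter or its body and is listed without a value. Among the 24 rows, both netrin-1 libraries lay below both control libraries in 12, neither group was separate in the other 12, and in 0 did both netrin-1 libraries lie above both controls. For islands, 3 of 5 were lower without overlap, beside 20.1% of all islands lower and 13.7% higher. For shores it was 2 of 3, beside 23.9% lower and 9.96% higher, and for shelves 0 of 2, beside 28% lower and 10.1% higher. Rows of 1 gene share calls where they overlap (the island of Pdha2 overlaps its body, and the islands of Slc25a31, Tuba3a, Rpl10l and Dpep3 overlap their promoters). The 3 shores also overlap promoters, and the Tuba3a shelf on the body's side overlaps the body. The rows are therefore not 24 separate observations.

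At the promoters, the 500 bp to either side of a start, all 6 genes with calls had a lower mean in netrin-1 cells. Over all promoters with at least 10 calls in every library, 56.5% had a lower mean. In 5 of the 6 the groups did not overlap, against 21% of 16091 promoters with at least 10 calls in every library that were lower in the same way and 13.2% that were higher. The median difference over the 6 was -7.16 percentage points, beside a median of -0.137 points over all those promoters. The 6 had higher control levels, with a median of 13.2% beside 1.28%, and a promoter near 1.28% cannot differ by -7.16 points. Promoters of like control level were not set beside them. Since the genes were picked with these values known, the count and the median difference describe them and support nothing further. When each library was centred on its own mean over all promoters, which moves the median of all promoters to 0.54 points, 4 of the 6 were lower without overlap, beside 9.25% of all promoters lower and 38.7% higher. The gene that dropped out was Rpl10l.

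**Figure D1:**
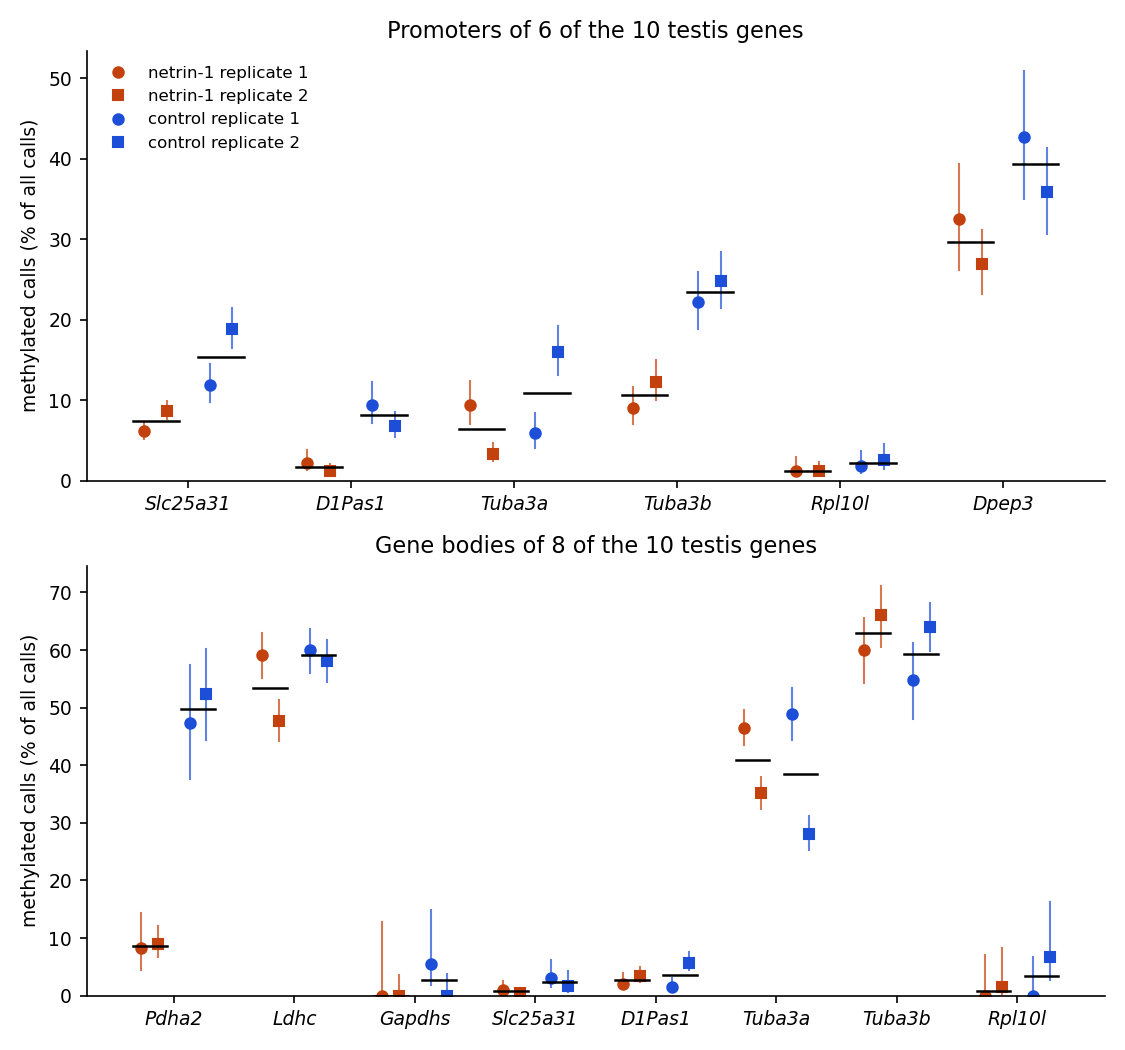
Methylation level (percent of calls) of the testis genes' promoters (top) and bodies (bottom) with at least 10 calls in every library. Points are single libraries with 95% Wilson intervals and black bars are group means. The netrin-1 points lie below both control points at 5 of 6 promoters and at 2 of 8 bodies, with the widest gap at the Pdha2 body, 8.59% in netrin-1 cells and 49.8% in control cells.

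The gene with the greatest difference was Pdha2, an intronless gene that encodes the testis form of the E1 alpha subunit of pyruvate dehydrogenase, the enzyme that feeds pyruvate into the citric acid cycle. Its promoter row had no calls, and the data come from the CpG island in the gene (chr3:141211321-141211889, 39 CpG dinucleotides), which begins 466 bp downstream of the start. The island stood at 8.33% (95% interval 4.59% to 14.7%) and 9.09% (6.75% to 12.1%) in the netrin-1 libraries. In the control libraries it stood at 48.3% (38.2% to 58.5%) and 55.6% (47.1% to 63.7%). The groups are far apart and no interval of one reaches into the other. Their means were 8.71% ± 0.536 in netrin-1 cells and 51.9% ± 5.12 in control cells (SD, n = 2 each), a difference of -43.2 points that left 16.8% of the control level.

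The body row of Pdha2 (chr3:141210004-141211855) consists mostly of the island's calls and stood at 8.59% ± 0.56 in netrin-1 cells and 49.8% ± 3.50 in control cells. The only other row of the gene with calls, the shore beyond the island's far end, had 0 methylated of 2 and of 5 calls in netrin-1 cells, and 2 of 6 and 4 of 16 in control cells, too few to compare. The island was covered at 24 and 36 positions in netrin-1 cells and at 28 and 37 positions in control cells. Its scaled coverage, in calls per 1000000 calls of the window table, was 3.66 and 9.86 in netrin-1 cells and 3.18 and 3.61 in control cells, so netrin-1 replicate 2 was read more deeply there than the other 3 libraries. The level was about the same in both netrin-1 libraries, and without netrin-1 replicate 2 the difference was -43.6 points.

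In the control cells the Pdha2 island was more methylated than 99.7% of 14358 islands with at least 10 calls in every library. Only 71 of 13930 islands with at least 30 calls in every library had a control mean of 40% to 60%, and their median difference was -4.64 points. Of these 71, 3 had a netrin-1 mean under 20%, and of the 7 that lie at a transcription start the Pdha2 island was the only one, the next greatest difference among them being -25.1 points. The 5 islands whose levels over the 4 libraries were closest to those of Pdha2, by Euclidean distance, are listed under Chpf, Igf1r, Gm14461, Insc and Zfp781. The Chpf island, inside a chondroitin polymerizing factor gene on chromosome 1, was the nearest, at a distance of 11.5 points. It stood at 11.1% ± 6.33 in netrin-1 cells and 58.5% ± 4.11 in control cells (SD, n = 2 each) on 32 to 45 calls per library. The other 4 lay at distances of 25.6 to 27.0 points, inside Igf1r or between genes, and none is at a start.

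**Figure D2:**
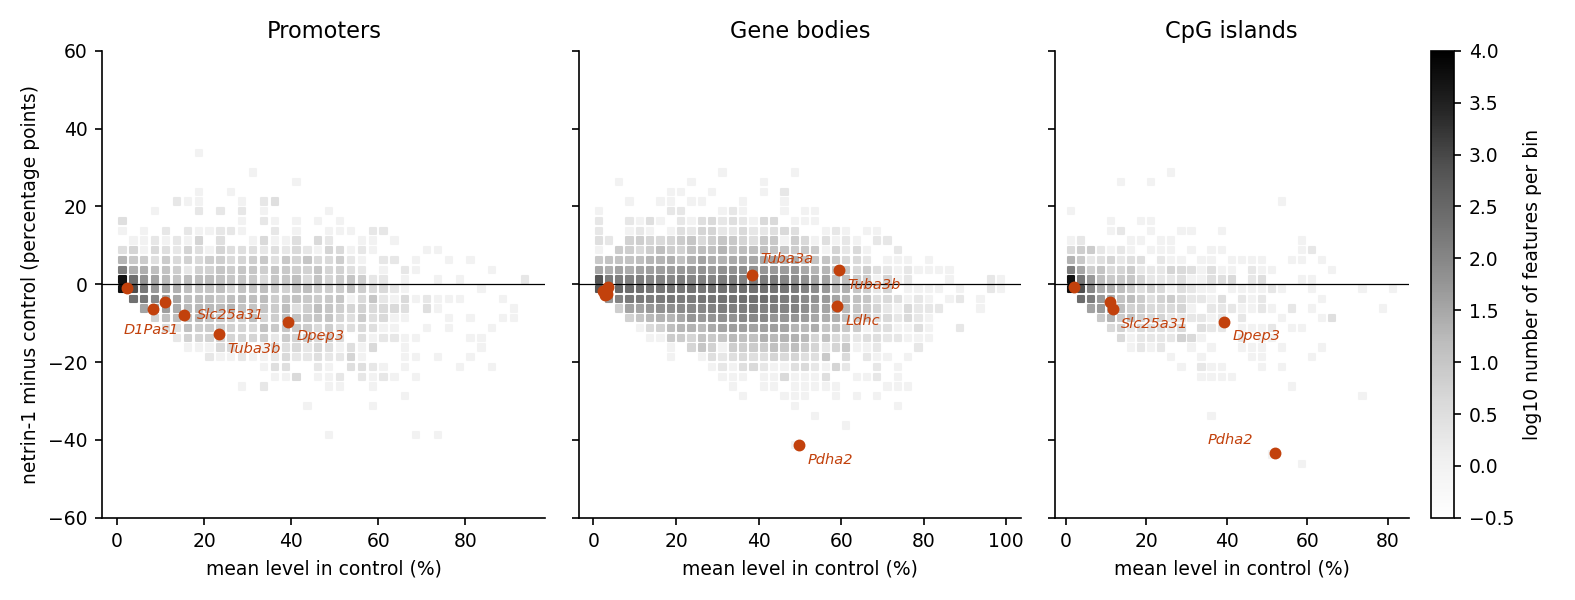
Difference between the group means (netrin-1 minus control, percentage points) against the control mean (percent) for promoters, bodies and CpG islands. Grey squares count all features with at least 30 calls in every library on a log10 scale, and orange points are the testis genes' features with at least 10. The Pdha2 body and island lie at -41.3 and -43.2 points, at the lower edge of the features of their kind.

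The 100 kb window that holds Pdha2 (chr3:141200001-141300000) was also lower in both netrin-1 libraries, at 15.6% and 17.2% in netrin-1 cells and 29.5% and 31.1% in control cells, on 271 to 556 calls per library. The window table counted 9 to 13 covered positions there, fewer than in the island row alone, so it does not hold all of the island's positions, and which of them it holds is not known. Over the 11 windows within 500 kb of the start, 6 were lower in netrin-1 cells without overlap and 0 were higher, a share near the background of 47.1% lower and 4.4% higher among 25528 windows. By mean, 6 of the 11 were lower and the others higher, while 81.0% of all windows had a lower mean. The region was thus not lower throughout. The median of the 11 differences was -7.84 points, against -3.47 points over all windows. Scaled coverage in these 11 windows was 1.01 times that of the controls at the median (range 0.774 to 1.15), so the greater depth at the island was not shared by the region. No other gene within 100 kb of Pdha2 had a promoter or body with at least 10 calls in every library.

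Ldhc and Gapdhs are the testis forms of lactate dehydrogenase and of glyceraldehyde-3-phosphate dehydrogenase, enzymes on which sperm glycolysis depends. Neither has a CpG island row, and only their bodies had calls. The Ldhc body (chr7:46861703-46878142) was highly methylated, at 59.1% and 47.7% in netrin-1 cells and 59.9% and 58.2% in control cells, on 589 to 752 calls. Both netrin-1 values lie within or below the control range, the groups overlap, and the difference of -5.64 points rests on netrin-1 replicate 2, without which it was 0.0357 points. The Gapdhs body (chr7:30729775-30743181) had 0 methylated of 26 and of 101 calls in netrin-1 cells, which allows levels of up to 11.5% and 2.97%. In control cells it had 3 of 55 calls methylated (5.45%) in replicate 1 and 0 of 98 (up to 3.06%) in replicate 2. The covered positions of the Gapdhs body therefore held almost no methylated calls in either group. The median over all bodies was 27.3% in netrin-1 cells and 30.2% in control cells. Only 2 and 5 positions were covered in netrin-1 cells and 6 and 5 in control cells, so the values do not describe the whole body.

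Slc25a31 encodes ANT4, the ADP/ATP carrier of the inner mitochondrial membrane in male germ cells, which stands in for the X-linked carrier gene Slc25a5. Its promoter (chr3:40708355-40709355) stood at 6.14% and 8.72% in netrin-1 cells and at 11.9% and 18.8% in control cells, on 713 to 2579 calls. The groups did not overlap, and the means were 7.43% ± 1.83 in netrin-1 cells and 15.4% ± 4.87 in control cells (SD, n = 2 each), a difference of -7.94 points that became -4.49 points without control replicate 2. Control replicate 1, on which that last value rests, covered 43 promoter positions, against 81 in control replicate 2 and 86 and 88 in netrin-1 cells. In the island it covered 34, against 70 in control replicate 2 and 75 and 77 in netrin-1 cells. The levels thus do not average the same positions. The island and both shores overlap the promoter row, and the downstream shore also overlaps the body, so their calls are partly the same. The island was at 5.20% ± 1.08 in netrin-1 cells and 11.6% ± 3.43 in control cells (a difference of -6.42 points, or -4.00 points without control replicate 2), and the downstream shore (chr3:40709242-40711241) at 5.49% ± 0.352 in netrin-1 cells and 11.7% ± 2.11 in control cells. The upstream shore overlapped between groups, at 12.4% and 18.8% in netrin-1 cells and 9.52% and 42.9% in control cells, and its difference of -10.6 points became 6.06 points without control replicate 2. The body was nearly unmethylated, at 1.03% and 0.468% in netrin-1 cells and 3.03% and 1.67% in control cells, from 3 covered positions, and its difference of -1.60 points became -0.924 points without control replicate 1.

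Coverage at Slc25a31 differed between the groups. Its promoter had 2.25 times the scaled calls in netrin-1 cells that it had in control cells, and the 11 windows within 500 kb had a median ratio of 1.79 (range 1.14 to 2.64), above which lay 1.16% of all windows. In those windows methylation was not separate as it was at the promoter: 1 of the 11 was lower without overlap and 0 were higher, and the median of the 11 differences was -1.67 points. Among all 25528 windows 47.1% were lower and 4.4% higher without overlap, with a median difference of -3.47 points. The window that holds the gene stood at 31.0% and 22.7% in netrin-1 cells and 20.8% and 30.7% in control cells. Among its neighbours within 100 kb, the promoter of Plk4, a centriole duplication kinase gene, was at 2.03% ± 0.117 in netrin-1 cells and 5.29% ± 1.79 in control cells. The Plk4 body was higher, at 51.4% ± 10.1 in netrin-1 cells and 40.9% ± 2.22 in control cells, as was the body of Hspa4l, a chaperone gene, at 10.4% ± 2.31 in netrin-1 cells and 6.72% ± 0.076 in control cells. The Hspa4l promoter was at 3.45% ± 0.419 in netrin-1 cells and had 0 methylated of 32 and of 90 calls in control cells, which allows up to 9.38% and 3.33%, so a difference was not detectable there at this depth. The body of Intu overlapped between groups. The part of the unequal coverage in the promoter's difference was not tested.

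**Figure D3:**
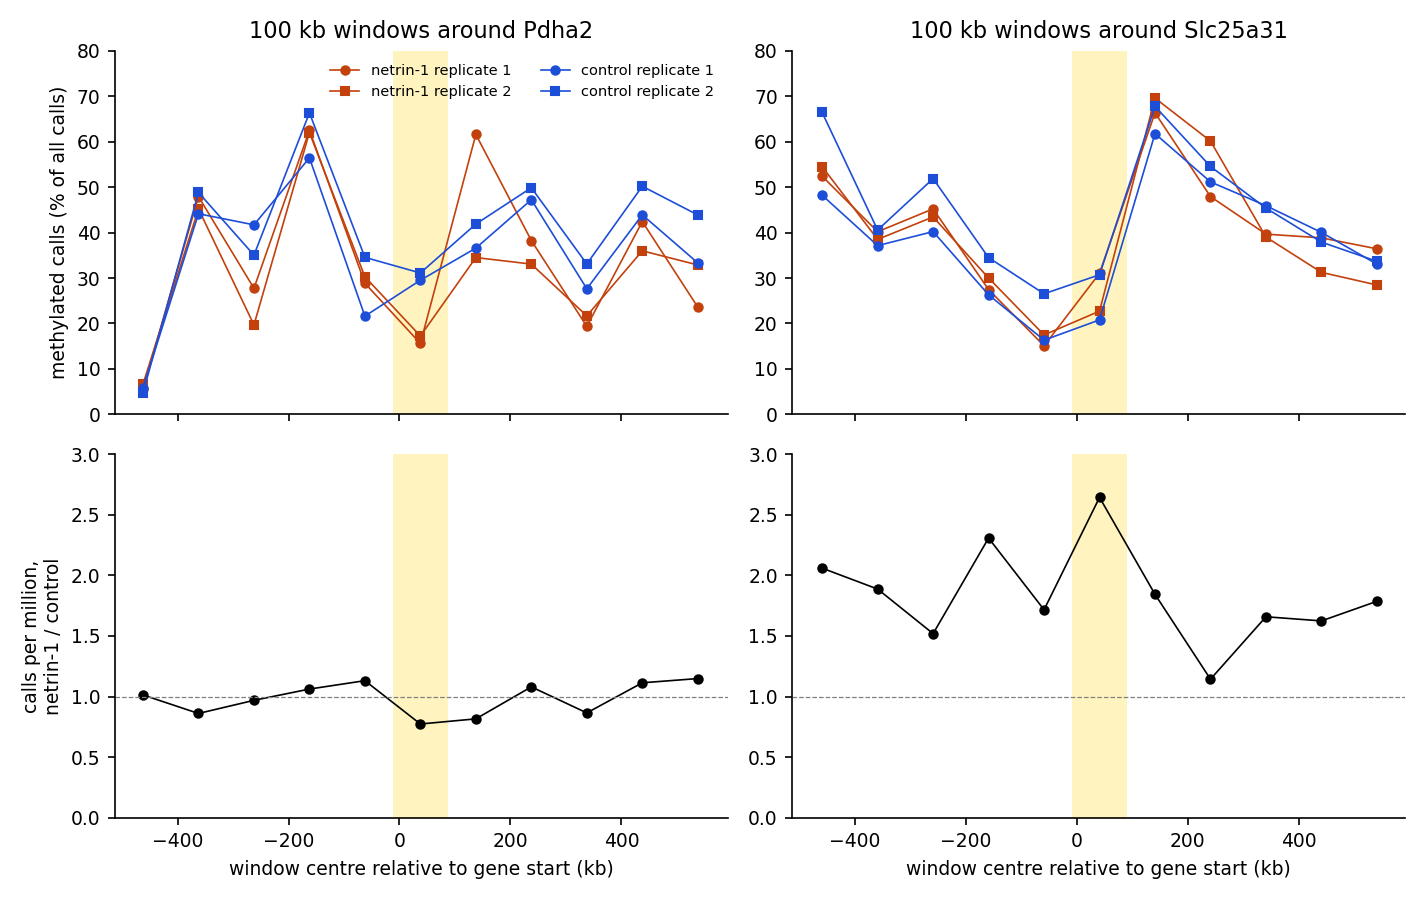
Methylation level of 100 kb windows by library (top, percent of calls) and ratio of scaled calls, netrin-1 over control (bottom), by genomic distance from the starts of Pdha2 and Slc25a31 (kb, increasing with the coordinate). Shading marks the window that holds the start. Around Pdha2 the ratio stays between 0.774 and 1.15 and the shaded window is lower in both netrin-1 libraries, whereas around Slc25a31 the ratio runs from 1.14 to 2.64 and the levels overlap in 10 of 11 windows.

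D1Pas1 is an autosomal retrocopy of the X-linked RNA helicase gene Ddx3x. Its promoter (chr1:186966916-186967916) stood at 2.27% and 1.25% in netrin-1 cells and at 9.43% and 6.84% in control cells, on 530 to 1198 calls. Both netrin-1 libraries lie well below both controls, with means of 1.76% ± 0.717 in netrin-1 cells and 8.14% ± 1.83 in control cells (SD, n = 2 each). That is a difference of -6.38 points and 21.6% of the control level, the greatest relative reduction among the 6 promoters. The higher levels lay on the upstream side. The CpG island at the gene is listed under the name RP23-429I18.2 and so is not among the 45 rows. It was found by its coordinates, after the values of the gene had been seen. Its upstream shore (chr1:186965390-186967389) stood at 8.91% and 3.52% in netrin-1 cells and 22.7% and 15.1% in control cells. The island itself (chr1:186967390-186968306) was at 1.26% and 2.15% in netrin-1 cells and 1.14% and 4.33% in control cells, which overlap. The body of D1Pas1 also overlapped, at 2.79% ± 0.974 in netrin-1 cells and 3.61% ± 3.03 in control cells. The surrounding window was the other way, at 43.0% and 42.7% in netrin-1 cells and 40.9% and 41.8% in control cells, and scaled coverage at the promoter was 0.963 times that of the controls.

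Rpl10l, the autosomal retrocopy of the X-linked ribosomal protein gene Rpl10, had the least methylated promoter of the 6. It stood at 1.26% and 1.16% in netrin-1 cells and at 1.89% and 2.57% in control cells, which amounts to 5 and 8 methylated calls in netrin-1 cells and 8 and 11 in control cells. The groups did not overlap, but the difference of -1.01 points rests on these few calls and became -0.673 points without control replicate 2. The shore beyond the start had 0 of 48 (which allows up to 6.25%) and 2 of 90 methylated calls in netrin-1 cells and 3 of 52 and 2 of 42 in control cells. Its island and its body overlapped between the groups. The window around it stood lower in netrin-1 cells, at 31.7% and 32.0% against 36.3% and 49.1%.

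Tuba3a and Tuba3b encode testis alpha-tubulins and are close copies of each other on chromosome 6. Tuba3b lacks a CpG island row, and its promoter (chr6:145615257-145616257) was at 9.06% and 12.3% in netrin-1 cells and at 22.2% and 24.8% in control cells, on 514 to 668 calls. The groups are clearly separate, and the difference between means of 10.7% ± 2.27 in netrin-1 cells and 23.5% ± 1.85 in control cells (SD, n = 2 each) was -12.8 points, the greatest among the 6 promoters. The body of the same gene did not follow it, with 171 of 285 and 202 of 306 calls methylated in netrin-1 cells and 116 of 212 and 328 of 512 in control cells, means of 63.0% ± 4.25 in netrin-1 cells and 59.4% ± 6.61 in control cells that overlap.

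At Tuba3a the libraries of a group disagreed. The promoter (chr6:125285542-125286542) stood at 9.39% and 3.37% in netrin-1 cells and at 5.92% and 15.9% in control cells, so the groups overlap, and without control replicate 2 the difference of -4.55 points became 0.462 points. The island gave nearly the same values, since it shares most calls with the promoter. The body and both shelves of Tuba3a had higher means in netrin-1 cells, by 2.36, 11.9 and 8.32 points, with overlap in each. Without control replicate 2 the body was at -8.02 points and the shelf on the body's side at -5.16 points, and without control replicate 1 the other shelf had the lower mean in netrin-1 cells. Control replicates alone ranged from 36.0% to 70.1% in the shelf on the body's side and from 14.6% to 55.3% in the other. Windows around Tuba3a had a median scaled coverage of 1.34 times that of the controls, above which lay 4.81% of all windows, while those around Tuba3b had 1.005 times. Reads from the shared stretches of these genes may be placed at either copy, so the values of the pair are less certain than those of the other genes.

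Dpep3 encodes a testis membrane-bound dipeptidase. Its promoter (chr8:105978919-105979919) was the most methylated of the 6, at 32.5% and 27.0% in netrin-1 cells and at 42.8% and 35.9% in control cells, on 145 to 467 calls over the same 9 positions in all 4 libraries. The groups did not overlap, with means of 29.7% ± 3.87 in netrin-1 cells and 39.3% ± 4.88 in control cells (SD, n = 2 each) and a difference of -9.59 points that became -6.13 points without control replicate 1. The island row holds the same calls, and the body had none.

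The control level is a term of the difference that was known when the genes were picked. Its rank among promoters of the same class is therefore also a description only. Among 11846 promoters with a CpG island, whose median was 0.973% in netrin-1 cells and 1.04% in control cells, the control level of Dpep3 exceeded 99.9%, that of Slc25a31 99.2%, that of Tuba3a 98.5% and that of D1Pas1 97.7%. Rpl10l exceeded 83.8% of them. Tuba3b, in the class without an island, exceeded 62.6% of 4245 promoters, whose median was 9.57% in netrin-1 cells and 12.45% in control cells.

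The bodies of the 10 genes went in both directions. Of the 8 with calls, 6 had a lower and 2 a higher mean in netrin-1 cells, near the 70.3% of all bodies with a lower mean. The groups were separate in 2, Pdha2 and Slc25a31, both lower. That is 25% of the 8, beside 33.7% of 18839 bodies that were lower without overlap and 7.59% that were higher. The median difference over the 8 was -2.11 points, close to the -1.74 points over all bodies. With each library centred, Pdha2 was the only 1 of the 8 that remained separate, and 17.2% of all bodies were lower and 23.3% higher. Without control replicate 1 or control replicate 2, when fewer libraries have to be separate, the count was 4 or 5, beside 51.4% or 50.4% of all bodies lower, so these counts lie near the background.

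The somatic counterparts of these genes, relatives from the same gene families, were examined as a fixed list of 16. All 16 promoters had at least 10 calls in every library. Among them 1 was lower without overlap (Slc25a5, 0.544% ± 0.0431 in netrin-1 cells and 1.34% ± 1.04 in control cells), 3 were higher and 12 overlapped, beside 21% of all promoters lower and 13.2% higher, and the median difference was 0.144 points. The 3 that were higher were Ddx3x, at 1.68% ± 0.776 in netrin-1 cells and 0.431% ± 0.215 in control cells, Tuba4a, at 4.89% ± 1.26 in netrin-1 cells and 3.20% ± 0.935 in control cells, and Dpep1, at 59.3% ± 0.697 in netrin-1 cells and 50.9% ± 3.46 in control cells. Leaving out a library changed the count of lower promoters, to 3 or 6 when control replicate 1 or 2 was the one omitted and to 4 or 2 when it was netrin-1 replicate 1 or 2. The share of all promoters that were lower was 37.9%, 40.1%, 35.0% and 36.0% in these 4 settings, so it was also greater.

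Set against their counterparts within a library, the testis genes differed by family. The Slc25a31 promoter was above those of Slc25a4 and Slc25a5 in all 4 libraries, by 5.50 to 18.5 points and by 5.57 to 18.2 points, and Tuba3a and Tuba3b were above Tuba1a, Tuba1b and Tuba1c in all 4. Tuba3b was also above Tuba4a in all 4 and above Tuba8 in 3 of 4, the exception being netrin-1 replicate 1. Tuba3a was above Tuba4a in 3 of 4, the exception being netrin-1 replicate 2, and above Tuba8 only in control replicate 2. D1Pas1 exceeded Ddx3x by 0.0341 and 0.119 points in netrin-1 cells and by 9.16 and 6.26 points in control cells. The start of the retrocopy and that of its X-linked source thus lay close together in the netrin-1 libraries and apart in the control libraries. Rpl10l was the reverse case, below Rpl10 in all 4 libraries, with differences of -8.66 and -2.13 points in netrin-1 cells and -5.34 and -3.53 points in control cells. Dpep3 lay below Dpep1 and above Dpep2 in all 4. Pdha1, the X-linked source of Pdha2, had a promoter at 0.34% ± 0.22 in netrin-1 cells and 0.428% ± 0.337 in control cells. The promoters of Pgk1, Ldhb and Gapdh had no methylated calls in either netrin-1 library, which allows up to 2.16%, 3.23% and 16.7% in the library with fewer calls, and each had methylated calls in 1 of the control libraries. The Ldha promoter row was at 11.4% ± 3.21 in netrin-1 cells and 9.79% ± 0.695 in control cells. That row holds 0 bases of either RefSeq promoter entry of Ldha, so it does not describe those starts. The Gapdh row holds 57 of the 300 bases of its RefSeq entry.

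**Figure D4:**
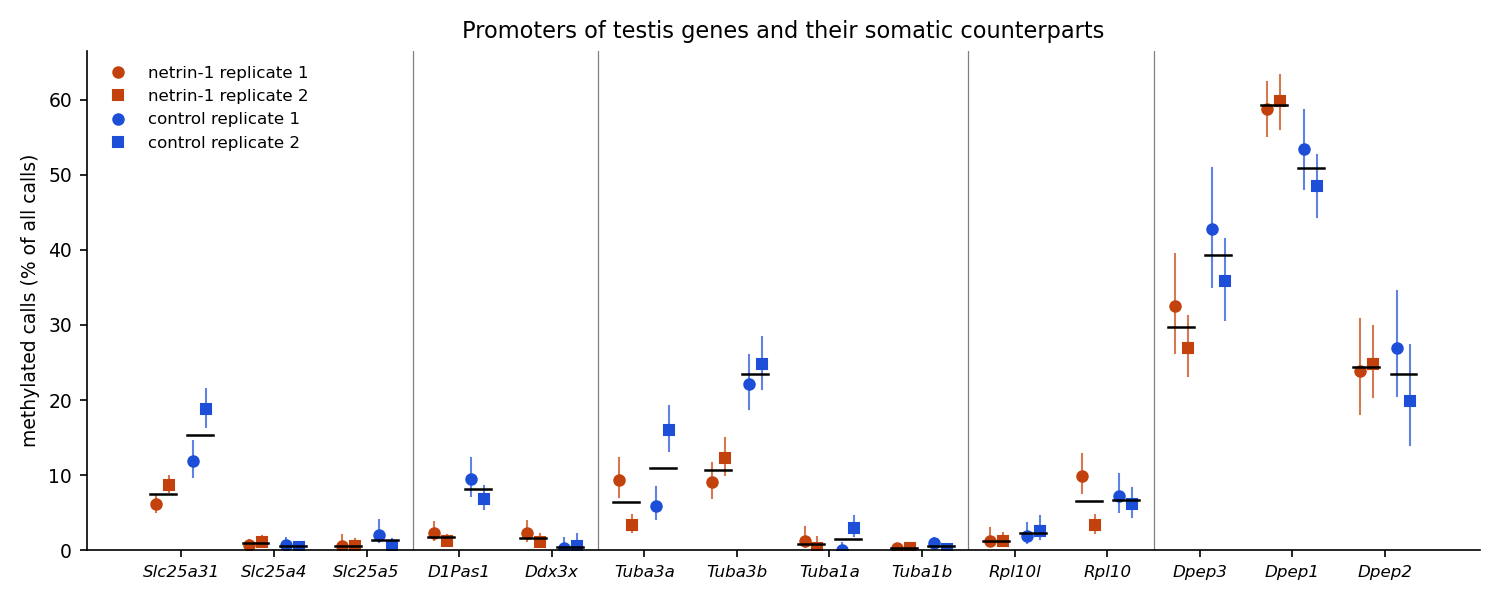
Promoter methylation (percent of calls) of the testis genes Slc25a31, D1Pas1, Tuba3a, Tuba3b, Rpl10l and Dpep3 beside somatic counterparts, grouped by family between vertical lines. Points are single libraries with 95% Wilson intervals and black bars are group means. D1Pas1 in netrin-1 cells is at 1.76%, near Ddx3x at 1.68%, while in control cells it is at 8.14%, above Ddx3x at 0.431%.

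A second fixed list held 32 other testis-expressed genes of metabolism or retrocopy origin. Of these, 21 promoters had at least 10 calls in every library, with a median difference of -0.702 points. In 8 of the 21 the netrin-1 libraries were lower without overlap (38.1%), in 2 they were higher, and 11 overlapped. Beside this, 21% of all promoters were lower and 13.2% higher. The lower share was 18.8% with a CpG island and 27% without one, and the 21 include both classes. The greatest differences among the listed promoters that were separate were at Aldoart2, an aldolase retrocopy, and at 4 genes that were lower. Aldoart2 was higher in netrin-1 cells (27.7% ± 7.96 against 7.14% ± 10.1, on 16 to 77 calls). Oxct2a, a testis enzyme of ketone body use, was at 2.58% ± 1.30 in netrin-1 cells and 7.67% ± 0.0653 in control cells. Rpl39l, a ribosomal protein gene of germ cells, was at 7.44% ± 1.48 in netrin-1 cells and 12.3% ± 0.529 in control cells. Cyct, the testis cytochrome c, was at 3.88% ± 1.53 in netrin-1 cells and 8.22% ± 1.61 in control cells, and Pabpc2, a poly(A)-binding protein gene, at 15.6% ± 0.646 in netrin-1 cells and 19.3% ± 4.04 in control cells. The count of lower promoters was 15 without control replicate 1, when 37.9% of all promoters were lower, and 3 with each library centred, when 9.25% were.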

How the data were processed

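RRBS libraries of CGR8 cells with a netrin-1 vector (2) or an empty vector (2) were grouped by their titles. The authors deposited, per the file headers, the count of covered positions, of total calls and of methylated calls per feature and library, and the methylation level as a fraction of calls. The submitters' processing notes name mm10, GRCm38 and FastQC. The aligner, methylation caller, read filters and conversion rate: not given in the sources used here. Dividing the deposited methylated calls by the total calls gave the deposited fraction to within 5.55e-16. No column of per-sample values in the tables used was left unmapped, and re-sorted copies of the tables were not used. No pair of libraries held identical calls.

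Levels were recomputed as percent. Rows with at least 10 calls in every library entered counts and medians. Scaled coverage is calls per 1000000 calls of the window table. Python 3.11.15, pandas 2.3.3, numpy 2.4.6, scipy 1.17.1 (Wilson intervals) and Biopython 1.88 (local alignment) were used, and the group summaries were tested on simulated data. Differences are the mean of the netrin-1 libraries minus the mean of the control libraries. Members and lists were chosen with earlier results of these data known, so no test was run. Genes named were all 10 members, their counterparts, the separate promoters of the second list (up to 5 by size), the 5 islands most like Pdha2 and genes within 100 kb of Pdha2 and Slc25a31. Alternatives were minimums of 5 and 20 calls, pooled calls, centred libraries and leaving out each library.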

Additional observations from a re-analysis of the deposited data

How the results depend on the processing

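The 2 libraries per group limit every comparison, and rows with few calls (the Rpl10l body and shore, the Gapdhs body) allow wide levels. No paired analysis was possible because the results come from no test and the labels, beyond replicate numbers, do not pair the libraries. The correlation of the deviations of replicates 1 from their group means, across promoters, was 0.0107. Minimums of 5 or 20 calls moved none of the values. Leaving out each library gave -46.8 to -39.6 points at the Pdha2 island, a median over the member promoters of -7.85 to -6.08 points with 5 to 6 of them lower, and a median over the member bodies of -3.87 to -1.42 points with 2 to 5 of them lower. The second testis list then had 9 to 15 lower promoters and the counterparts 2 to 6, while 35.0% to 40.1% of all promoters and 43.6% to 57.3% of all bodies were lower. With pooled calls, when any lower pooled level counts, 6 member bodies, 16 promoters of the second list and 8 counterparts were lower, beside 71.7% of all bodies and 56.5% of all promoters. With each library centred, which raises every difference by the mean difference of all features, these counts were 1, 3 and 0, and the median over the member bodies turned to 0.019 points. Of 23 other member differences, 2 changed sign when centred and 7 without control replicate 2.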
